A study of Mus musculus with 4 samples.

Results

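A set of 10 genes that mark spermatogonial stem cells or drive the differentiation of spermatogonia was followed in whole testes with and without RFX2, a transcription factor of the regulatory factor X family. It comprised Gfra1, Id4, Zbtb16, Sall4 and Nanos3, taken as genes of stem and progenitor cells, and Sohlh1, Sohlh2, Dmrt1, Kit and Stra8, taken as genes of differentiation. The members were chosen by name, as known regulators and markers, and all 10 were found among the 22311 gene symbols of the deposited files, each with a single entry. RNA of all testicular cells was sequenced from 2 mutant and 2 control samples, all from males at 24 days after birth. The labels give the mutants as rfx2-/- and the controls as wild type, both of strain DBA, whereas the methods of the study describe heterozygous controls and a mixed background that includes C57BL/6, so the genotype of the controls and the strain are not settled. The targeted allele, derived from a single embryonic stem cell clone, lacks exons 6 and 7 in every cell of the mouse, with a neomycin-resistance cassette in their place. These samples were used to ask whether the spermatogonial genes differed between the genotypes. The age lies before the massive loss of round spermatids that the study describes in the mutants. At a younger age the study already saw delayed spermatogenesis in some mutants and more apoptotic cells.

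Spermatogonia are the mitotic germ cells at the base of the seminiferous tubule. Some of them renew themselves as stem cells, under the growth factor GDNF from Sertoli cells, the supporting cells of the tubule. Their progeny respond to retinoic acid, turn on the receptor KIT, divide and enter meiosis as spermatocytes, which give rise to the round and then elongating spermatids. In the postnatal testis the spermatogonia are a minority of the cells, so that their RNA is diluted by that of spermatocytes and spermatids. In whole-testis RNA, fewer cells of a type and less RNA per cell cannot be told apart. Nor does the level of a gene there show which cells its RNA came from.

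The values are FPKM, fragments per kilobase of gene scaled to the depth of the sample, which can be compared between genes because they are set against gene length. The width of the deposited confidence bounds corresponds to between 17200000 and 20300000 fragments per sample. This is an estimate and not a count, and it lies below the read numbers that the study reports. The FPKM of Rfx2 itself was 36.7 in mutant 1, 39.8 in mutant 2, 123 in control 1 and 89.4 in control 2, where the numbers are those of the labels. Its log2 fold change, mutant minus control, was -1.43 (SE 0.19, limma adjusted p = 0.00617). The study found mutant RNA spliced across the deleted exons with a frame shift, and no RFX2 protein in mutant testes by Western blot. RNA of the remaining exons can thus still add to the FPKM of Rfx2. The call on Rfx2 was lost with median-ratio scaling of the samples (adjusted p = 0.0829), without the expression filter (adjusted p = 0.0607), with limma-voom on fragment numbers (adjusted p = 0.0677) and without control 1 (adjusted p = 0.0628). The markers of elongating spermatids set the samples apart most among the 7 marker lists used. The summed FPKM of 12 elongating spermatid markers was lowest in mutant 1, at 1724, and reached 5975 in control 2, 7584 in mutant 2 and 8673 in control 1.

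The order of the mean FPKM over the 4 samples ran from Id4 at 21.6 through Dmrt1 at 16.5, Stra8 at 14.7, Sohlh2 at 8.02, Sohlh1 at 5.18 and Kit at 4.21 to Zbtb16 at 1.52, Sall4 at 1.30, Gfra1 at 1.22 and Nanos3 at 0.906. The 5 genes of differentiation thus lay above every stem and progenitor gene except Id4. The samples of Dmrt1 overlapped with those of Stra8, those of Sohlh1 with those of Kit, those of Zbtb16 with those of Sall4, those of Sall4 with those of Gfra1 and those of Gfra1 with those of Nanos3. Id4 and Dmrt1, Stra8 and Sohlh2, Sohlh2 and Sohlh1, and Kit and Zbtb16 did not overlap in FPKM in any of the 4 samples.

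**Figure D1:**
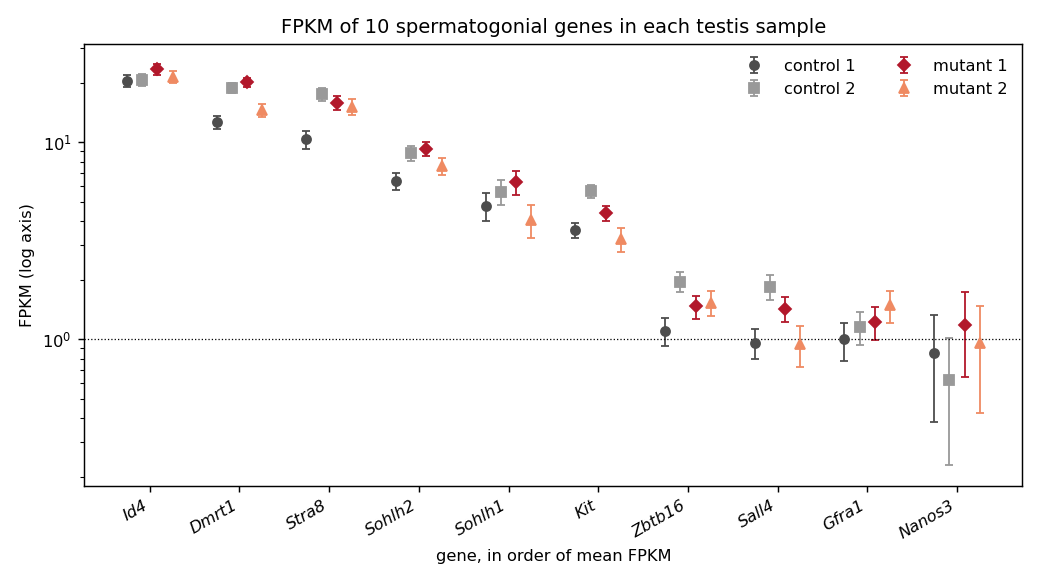
FPKM on a log axis of the 10 spermatogonial genes in each of the 4 testis samples, in order of mean FPKM, with bars for the deposited confidence bounds and a dotted line at the filter of 1 FPKM. Id4 sits between 20.6 and 23.5 FPKM in all samples, and control 1 is the lowest sample for Id4, Dmrt1, Stra8, Sohlh2, Zbtb16 and Gfra1.

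Gfra1 encodes the co-receptor through which GDNF acts on stem spermatogonia. The gene is on the minus strand at chr19:58310094-58530399 in NCBIM37 (mm9). Its FPKM was 1.23 in mutant 1 and 1.49 in mutant 2, while control 1 had 0.9996 and control 2 had 1.16. Both mutant samples were above both control samples. The log2 fold change of 0.18 (95% interval -0.27 to 0.63) was within the error of the test. It was larger with less damping of low values, at 0.31 with a pseudocount of 0.1 (limma adjusted p = 0.9998). The log2 ratio of mean FPKM without a pseudocount was 0.33. With limma-voom, which starts from fragment numbers estimated from the bounds, the log2 fold change was 0.38 (adjusted p = 0.997). The bounds correspond to between 83 and 116 fragments per sample, and an annotated noncoding transcript on the opposite strand overlaps an exon of the gene, so that without strand information reads of the pair cannot be told apart.

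Id4 encodes an inhibitor of basic helix-loop-helix factors and marks the cells with the most stem cell activity. Its place is chr13:48356796-48359405 on the plus strand in NCBIM37 (mm9). Its FPKM was 23.5 in mutant 1, 21.4 in mutant 2, 20.6 in control 1 and 20.8 in control 2. Mutant samples averaged 22.5 ± 1.48 FPKM (SD, n = 2) and control samples 20.7 ± 0.144 FPKM (SD, n = 2), without overlap. The log2 fold change of 0.11 (95% interval -0.27 to 0.50) was within the error of the test. The ratio of the highest to the lowest sample was 1.14, the smallest of the 10 genes. Which cells of the testis gave the Id4 RNA was not tested. Here too a noncoding gene on the opposite strand overlaps an exon, with the same limit on its reads.

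An X-box is the site that RFX factors bind, and its standard form, with a gap of 0 to 3 bases between its arms, was searched for on both strands. Promoters of 250 bases before and 50 after the start site were found in RefSeq (GRCm38.p6) for 7 of the 10 genes, namely Gfra1, Id4, Kit, Nanos3, Sohlh1, Sohlh2 and Stra8. None held an X-box. A promoter with an X-box was found for 1.75% of the 27025 genes with RefSeq promoters and for 2.44% of the 9139 tested genes among them. For 200 genes called lower in mutant testes the share was 12.5%. In NCBIM37 (mm9), none of the 10 genes had an X-box within 1000 bases of the annotated start, against 4.596% of 12620 tested genes. The Id4 promoter is shown because it held the closest match of the 7, 1 mismatch from the standard form. Of all 27025 genes, 12.7% had a promoter with an X-box or a match with 1 mismatch. The match lies from -155 to -143 relative to the start site, on the opposite strand, and is in capitals.
Id4 promoter (RefSeq, GRCm38.p6), chr13:48260866-48261165, plus strand: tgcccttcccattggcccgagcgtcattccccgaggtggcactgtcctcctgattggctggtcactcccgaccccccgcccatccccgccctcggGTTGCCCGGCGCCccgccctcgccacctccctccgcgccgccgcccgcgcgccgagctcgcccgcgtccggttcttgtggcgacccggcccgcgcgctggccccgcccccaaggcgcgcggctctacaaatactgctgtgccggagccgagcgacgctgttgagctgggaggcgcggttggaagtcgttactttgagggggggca

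Zbtb16 encodes PLZF, the zinc finger repressor used in the study to stain undifferentiated spermatogonia. By that staining the study found comparable numbers of these cells in mutant and wild-type mice. The gene spans chr9:48462416-48644050 on the minus strand in NCBIM37 (mm9). Its FPKM was 1.47 and 1.54 in mutant 1 and 2, and 1.103 and 1.97 in control 1 and 2. The mutant samples lay between the control samples, and the log2 fold change was 0.0030 (95% interval -0.53 to 0.53). The difference between the controls was 1.78-fold, and their deposited bounds did not overlap.

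The region just upstream of Zbtb16, under its alias Plzf, served in the study as a negative control for RFX2 binding by ChIP-PCR. The amplicon of its primers is shown because it is the only region of these genes that the study probed for RFX2. It spans 117 bases from -121 to -5 relative to the annotated start, outside any exon of the gene. It held no X-box, and its closest match had 2 mismatches. The sequence is on the minus strand, in the direction of the gene, with the forward primer and the complement of the reverse primer in capitals.
Zbtb16 amplicon, chr9:48644055-48644171 in NCBIM37 (mm9): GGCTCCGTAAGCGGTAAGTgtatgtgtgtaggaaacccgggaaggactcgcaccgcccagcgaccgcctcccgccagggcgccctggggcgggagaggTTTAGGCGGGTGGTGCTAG

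Sall4 encodes a zinc finger factor of undifferentiated spermatogonia that works with PLZF. Sall4 is found at chr2:168573832-168593443 on the minus strand in NCBIM37 (mm9). Its FPKM was 1.43 in mutant 1, 0.948 in mutant 2, 0.962 in control 1 and 1.85 in control 2. Control 2 and mutant 1 were high, control 1 and mutant 2 were low, and the groups overlapped. The log2 fold change was -0.12 (95% interval -0.69 to 0.45), and -0.060 with quantile normalization. With limma-voom on fragment numbers estimated from the bounds it was -0.28. That value rests on estimates that do not follow FPKM. Mutant 2 and control 1 had 0.948 and 0.962 FPKM but 73 and 130 fragments. The ratio of the highest to the lowest sample was 1.95, the largest of the 10 genes. A noncoding gene on the opposite strand overlaps an exon of Sall4.

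Nanos3 encodes an RNA-binding protein needed for the survival of early germ cells and expressed in undifferentiated spermatogonia. It lies on the minus strand at chr8:86697632-86700451 in NCBIM37 (mm9). Its FPKM was 1.19 and 0.954 in mutant 1 and 2, and 0.857 and 0.624 in control 1 and 2, where the bounds correspond to between 10 and 19 fragments. Both mutant samples were above both control samples, but the deposited bounds of all 4 samples overlapped. Nanos3 was below the filter and was not tested across genes. An exact two-sided permutation test of the 4 samples gave p = 0.333, the smallest that 2 against 2 samples allow.

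Sohlh1 and Sohlh2 encode basic helix-loop-helix factors that begin spermatogonial differentiation. They lie at chr2:25698515-25702768 on the minus strand and at chr3:54985950-55013879 on the plus strand in NCBIM37 (mm9). Sohlh1 had 6.29 and 4.04 FPKM in mutant 1 and 2, and 4.77 and 5.63 FPKM in control 1 and 2, so that both control samples fell between the mutant samples. Sohlh2 had 9.31 and 7.59 FPKM in mutant 1 and 2, and 6.34 and 8.81 FPKM in control 1 and 2. Their log2 fold changes were -0.03 (95% interval -0.61 to 0.55) for Sohlh1 and 0.15 (95% interval -0.39 to 0.69) for Sohlh2. Both genes were highest in mutant 1.

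Dmrt1 encodes a DM domain factor that holds back meiosis in spermatogonia and is also expressed in Sertoli cells. Dmrt1 is on the plus strand at chr19:25580108-25678819 in NCBIM37 (mm9). Its FPKM was 20.2 and 14.6 in mutant 1 and 2, and 12.6 and 18.8 in control 1 and 2. Replicates of the same genotype differed 1.38-fold in the mutants and 1.49-fold in the controls, with no overlap of the deposited bounds, while the means of the genotypes were 17.4 ± 3.96 FPKM and 15.7 ± 4.38 FPKM (SD, n = 2 each). The log2 fold change was 0.14 (95% interval -0.43 to 0.71).

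Kit encodes the receptor of stem cell factor, the main surface mark of differentiating spermatogonia. It is also expressed outside spermatogonia, for example in Leydig cells. Which cells gave the Kit RNA measured here was not tested. Kit is found at chr5:75970941-76052747 on the plus strand in NCBIM37 (mm9). Its FPKM was 4.38 and 3.22 in mutant 1 and 2, and 3.60 and 5.66 in control 1 and 2. The mutant mean was 82.1% of the control mean, and the groups overlapped. The log2 fold change was -0.22 (95% interval -0.82 to 0.39), the lowest of the tested members. The bounds imply 520, 216, 513 and 685 fragments in the same order of samples. These estimates do not follow FPKM, since mutant 2 and control 1 had 3.22 and 3.60 FPKM but 216 and 513 fragments. With limma-voom the log2 fold change was -0.70 (adjusted p = 0.803), a value that rests on these estimates.

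Stra8 encodes a factor that retinoic acid induces in differentiating spermatogonia and in cells about to enter meiosis. It lies on the plus strand at chr6:34870163-34889342 in NCBIM37 (mm9). Its FPKM was 15.9 in mutant 1, 15.2 in mutant 2, 10.4 in control 1 and 17.5 in control 2. Control 1 alone was low, and both mutant samples lay between the controls. The log2 fold change was 0.19 (95% interval -0.39 to 0.76), next to that of Gfra1.

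The genotypes were compared by limma for 12985 genes on the log2(FPKM + 1) scale. Genes had to reach 1 FPKM in 2 or more samples, a filter that 9 of the 10 members passed. At an adjusted p under 0.05, 0 of the 9 were lower and 0 were higher, where 2.52% of all tested genes were called lower and 0.308% higher. At an unadjusted p under 0.05 there were also 0 members, with 8.69% of all tested genes, and limma-voom on fragment numbers gave 0 at either threshold. Every tested member had an adjusted p of 0.9999. The log2 fold changes ran from -0.22 to 0.19 with a median of 0.11, and the median over all tested genes was 0.03. The median of the members turned on single samples: it was -0.13 without control 1, 0.017 without mutant 1, 0.18 without mutant 2 and 0.24 without control 2. The median without regard to sign was 0.14 for the members and 0.13 for all tested genes. The intervals leave room for changes that were not detectable with 2 samples a group: the lowest bound was -0.82 for Kit and the highest 0.76 for Stra8. Of the 9 tested members, 2 had both mutant samples above both controls, as did 16.3% of all tested genes. None had both below, as did 15.2% of all tested genes.

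**Figure D2:**
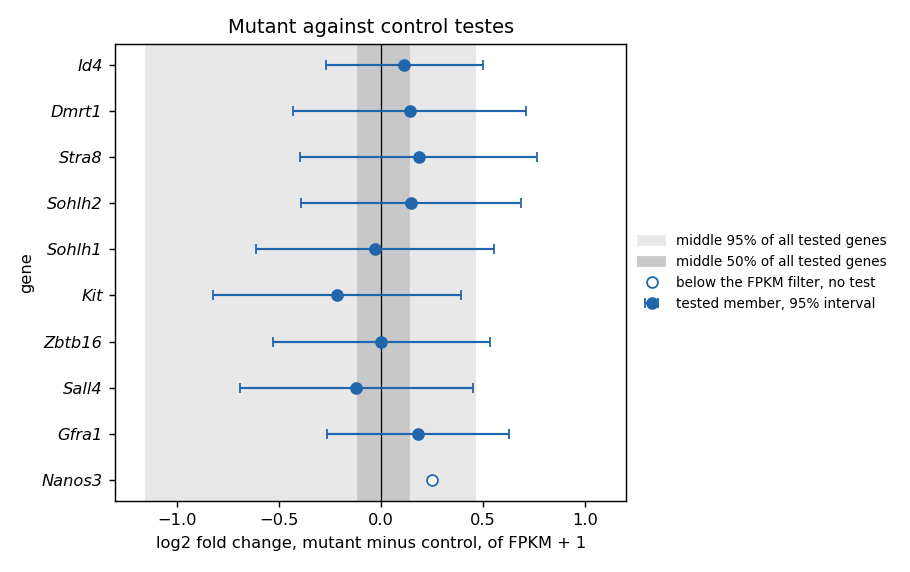
Log2 fold change of FPKM + 1, mutant minus control, for each of the 10 genes, with bars for the 95% interval from limma and shading for the middle 50% and 95% of the 12985 tested genes. Every interval of the 9 tested members spans 0, and Nanos3, below the filter, is drawn as an open point with no interval.

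For most members the samples of one genotype lay further apart than the genotypes did. The share of all tested genes for which this held was not computed, so it cannot be called particular to the members. The deposited bounds of the 2 control samples did not overlap for 6 members (Zbtb16, Sall4, Sohlh2, Dmrt1, Kit and Stra8), and those of the 2 mutant samples did not overlap for 5 (Sall4, Sohlh1, Sohlh2, Dmrt1 and Kit). Over all tested genes the bounds did not overlap between the control samples for 52.9% and between the mutant samples for 49.9%, shares near those of the members. These bounds cover the counting and assignment of fragments in a single library and not the variation between mice. In 7 members, mutant 1 was above mutant 2 and control 2 was above control 1. They were all 5 genes of differentiation, together with Id4 and Sall4. Of all tested genes, 46.9% showed this order. The order was noticed in these values and is given with no test.

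Part of it was shared by all genes. Median-ratio scaling divided mutant 1 by 1.07, mutant 2 by 0.965, control 1 by 0.947 and control 2 by 1.05, and left the order in 5 members (Sall4, Sohlh1, Sohlh2, Dmrt1 and Kit) and in 29.0% of all tested genes. After scaling, control 2 was still 1.73-fold above control 1 for Sall4, 1.60-fold for Zbtb16, 1.52-fold for Stra8, 1.41-fold for Kit, 1.34-fold for Dmrt1 and 1.25-fold for Sohlh2. The ratio was 1.06 for Sohlh1 and 1.04 for Gfra1. Control 2 was below control 1 for Id4, with a ratio of 0.907, and for Nanos3, with a ratio of 0.654 that rests on its 10 to 19 fragments per sample.

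**Figure D3:**
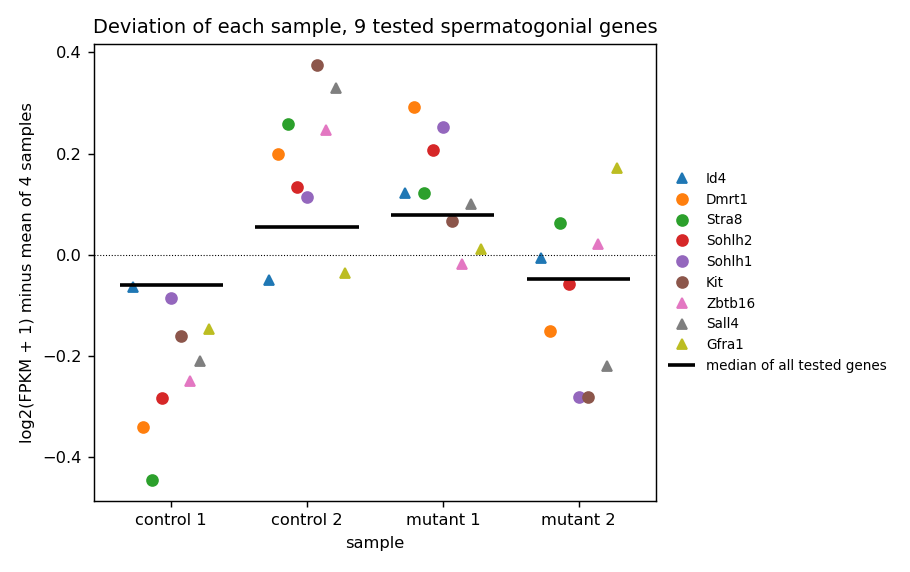
Log2(FPKM + 1) of each sample minus the mean of the 4 samples, for the 9 tested members, with circles for genes of differentiation, triangles for stem and progenitor genes and a black bar for the median of all tested genes. In control 1 all 9 genes lie below 0, and in control 2 all but Id4 and Gfra1 lie above 0.

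Other genes of the same cells were taken as lists. Of 26 further genes of undifferentiated spermatogonia, 10 were tested, and 0 were called lower and 0 higher, with a median log2 fold change of 0.24. The other 16 were under the filter, among them Nanos2, Eomes and Pax7 at an FPKM of at most 0.133, 0.068 and 0.033. The highest log2 fold changes were 0.35 for Zfp462 and 0.32 for Utf1, a chromatin factor of early spermatogonia. The lowest were -0.61 for Pou5f1, the pluripotency factor OCT4, and 0.06 for Lin28a, an RNA-binding protein of progenitors. Pou5f1 had 1.07 and 0.543 FPKM in mutant 1 and 2, and 1.85 and 1.61 FPKM in control 1 and 2, without overlap (unadjusted p = 0.024, limma adjusted p = 0.365). All 12 further genes of differentiating spermatogonia were tested, with 0 called in either direction and a median of 0.08. Their log2 fold changes ran from -0.17 for Rarg, a retinoic acid receptor, and -0.01 for Ccnd2, a cyclin of spermatogonial division, to 0.16 for Dnmt3b, a DNA methyltransferase, and 0.23 for Rhox13.

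The signals that act on the members were also compared. Of 20 niche signals and receptors, 8 were tested and 0 were called, with a median log2 fold change of -0.05. The lowest were -0.39 for Cxcl12, a chemokine of Sertoli cells, and -0.11 for Igf1. The highest were 0.07 for Csf1r and 0.03 for Igf1r. The direct partners of members are given here outside the rule for named genes, after their values were seen. Gdnf, the ligand of GFRA1, had 0.512 and 0.282 FPKM in mutant 1 and 2, and 0.273 and 0.545 FPKM in control 1 and 2. Ret, which signals with GFRA1, had 0.842 and 0.616 FPKM in mutant 1 and 2, and 0.433 and 0.816 FPKM in control 1 and 2. Both were under the filter. Kitl, the ligand of KIT, had 5.17 and 3.47 FPKM in mutant 1 and 2, and 3.54 and 5.79 FPKM in control 1 and 2, a log2 fold change of -0.08. In all 3 partners the groups overlapped, mutant 1 was above mutant 2 and control 2 was above control 1. This order of the samples held in 5 of the 8 tested niche genes and in 46.9% of all tested genes. Of all tested genes, 16.3% had both mutant samples above both controls and 15.2% had both below.

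Retinoic acid drives Kit and Stra8 and is made and broken down in the tubule. Of 21 genes of its metabolism and receptors, 17 were tested and 0 were called, with a median of 0.07. The lowest log2 fold changes were -0.60 for Rxra and -0.23 for Rara, both receptor genes, and that of Rxrb, another receptor gene, was 0.33. Rxra had 3.56 and 3.77 FPKM in mutant 1 and 2, and 6.25 and 5.89 FPKM in control 1 and 2 (unadjusted p = 0.021, limma adjusted p = 0.335). Of 14 genes of meiotic entry, 12 were found and 11 tested, with 0 called and a median of 0.09. Their log2 fold changes ran from -0.19 for Spo11, which makes meiotic DNA breaks, and -0.08 for the cohesin gene Stag3, to 0.23 for the recombinase gene Dmc1 and 0.29 for the cohesin gene Smc1b. Across these 5 lists, 56 different genes were tested, of which 0 were called. At an unadjusted limma p under 0.05, 2 were lower and 0 higher, where 8.69% of all tested genes passed in either direction.

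The sample order of the members was set beside that of the other cell types. Mutant 1 lay above mutant 2 and control 2 above control 1 in 11 of 12 further genes of differentiating spermatogonia. The same order held in 7 of 10 of undifferentiated spermatogonia, and after scaling in 10 and 5 of the 2 lists. Of all tested genes, 46.9% showed this order before scaling and 29.0% after. It also held in 9 of 9 Sertoli cell markers tested, before and after scaling. Their summed FPKM was 444 and 378 in mutant 1 and 2, and 290 and 437 in control 1 and 2. It held in 0 of 7 Leydig cell markers, summed at 461 and 245 FPKM in mutant 1 and 2, and 396 and 140 FPKM in control 1 and 2. Of the 9 pachytene spermatocyte markers 1 showed it, summed at 4780 and 4869 FPKM in the mutants and 5262 and 4384 FPKM in the controls.

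In both spermatid lists the median level was lower in mutant 1 than in mutant 2 and lower in control 2 than in control 1. No marker of the 10 round and 12 elongating spermatid markers showed the order of the members, and the summed FPKM of the round spermatid markers was 689 and 1083 in mutant 1 and 2, and 938 and 814 in control 1 and 2. The peritubular myoid markers showed it in 1 of 6, summed at 111 to 163 FPKM, and the macrophage markers in 4 of 7, summed at 33.7 to 52.8 FPKM. In none of these 7 lists was a gene called between the genotypes. At an unadjusted limma p under 0.05, 2 of their genes were lower, where 8.69% of all tested genes passed in either direction. The 2 were Pgk2 among the pachytene and Spaca7 among the round spermatid markers, picked out after their values were seen. Whether the share of each cell type in a sample sets the levels of the spermatogonial genes was not tested.

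**Figure D4:**
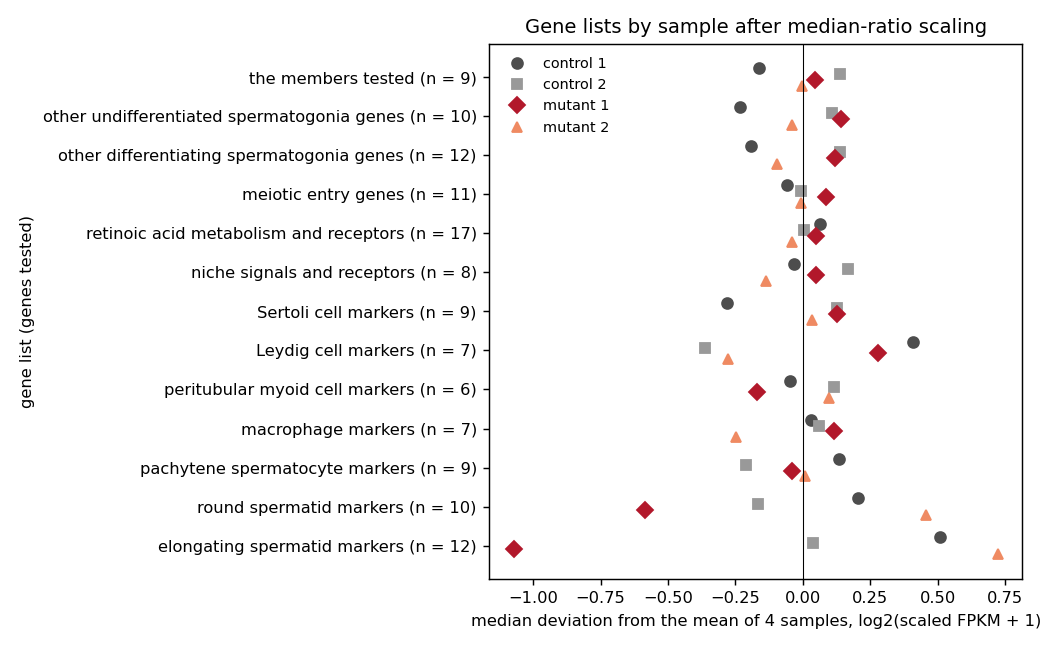
Median deviation of each sample from the mean of the 4 samples, in log2(FPKM + 1) after median-ratio scaling, for the tested members and 12 lists of other genes. Control 1 is the lowest sample for the members (-0.16), both lists of other spermatogonial genes (-0.23 and -0.19) and the Sertoli cell markers (-0.28), while mutant 1 is the lowest for the round (-0.58) and elongating (-1.07) spermatid markers.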

How the data were processed

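Whole-testis RNA of 2 mutant and 2 control samples was analysed. Per the submitters' processing notes TopHat 2.0.6 was the aligner, with mm9 as the genome, and the authors deposited FPKM from Cufflinks for each gene of each sample, with the bounds of a confidence interval, normalized for gene length and depth within a sample. Comparisons by Cuffdiff on pooled reads were not repeated here. The members and lists were chosen with earlier results of these data known. Entries that share a symbol were summed. Values were taken as log2(FPKM + 1) and tested in limma 3.58.1 under R 4.3.3 (lmFit, then eBayes with trend) by a two-sided test of mutant against control, with Benjamini-Hochberg adjustment over all tested genes. Log2 fold changes are on this scale, so the pseudocount of 1 understates changes of low genes. The functions were tested on simulated data. Fragment numbers were estimated from the bounds, taken as 2 SD of a Poisson number, and are not counts. Bounds that also cover the assignment of fragments make these estimates too low. The labels do not say whether the samples of a genotype came from separate mice, and the study calls them biological replicates. Named in the text are all members, Rfx2, and from each list of related genes those called and the 2 highest and 2 lowest log2 fold changes, of which 1 is not reported here. Same-numbered samples had a correlation of -0.15 in their deviations from the group means. Alternatives were other pseudocounts, filters, scalings, fits and summing rules, each sample left out, and, added after seeing the data, a crossed block. Gene positions and antisense overlaps are from GENCODE on NCBIM37, and strandedness of the libraries is not given in the sources used here. Tables were made with python 3.11.15 and pandas 2.3.3.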

Additional observations from a re-analysis of the deposited data

How the results depend on the processing

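None of the 9 tested members was called under any alternative, and their lowest adjusted p was 0.758, with the crossed replicate block. Nanos3 had an adjusted p of 0.847 without a filter and 0.905 with a filter at 0.1 FPKM. The log2 fold changes of the tested members changed sign in 14 of 153 values, all of them uncalled. Many of the 153 could not change sign. The other filters, eBayes fits, replicate blocks and the highest entry leave the log2 fold change of a member as it is. Zbtb16 was -0.0038 with median-ratio scaling and -0.030 when mean FPKM were divided with no pseudocount, and Sohlh1 was 0.029 with quantile normalization. With each sample left out in turn, where the lone sample of a group is assumed to vary like the others, the log2 fold changes ran from -0.25 to 0.25 for Zbtb16, -0.39 to 0.15 for Sall4, -0.29 to 0.24 for Sohlh1, -0.060 to 0.36 for Sohlh2, -0.13 to 0.41 for Dmrt1, -0.48 to 0.052 for Kit and -0.17 to 0.54 for Stra8. The log2 fold change of Rfx2 was -1.45 with median-ratio scaling, -1.43 without a filter and -1.66 with limma-voom on fragments, above the threshold in each, and ran from -1.66 to -1.20 with each sample left out, above the threshold without control 1. The causes were not tested. With the replicate block from the labels 0 members were called, and over all genes 525 were lower and 70 higher, against 327 and 40 without it. The numbers of the labels are not stated to pair the samples, and a correlation of -0.15 led to the crossed replicate block, with 266 lower, 28 higher and 0 members. With 2 samples a group and between 10 and 19 fragments, Nanos3 is the least precise member.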
